A study of Mus musculus with 37 samples.

Results

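The Ces2 carboxylesterases were followed in mouse cardiac fibroblasts (CFs) that had been cultured in medium conditioned by cardiomyocytes. The 6 genes Ces2a, Ces2b, Ces2c, Ces2e, Ces2f and Ces2g were taken by name from the 30892 genes of the CF count table. They were chosen by their measured levels: Ces2 transcripts were already known to be higher in these same CF libraries after some of the media. Their levels and fold changes across the media are given as a description, without a test. Tests are given only for other genes of the CF table and for the rat carboxylesterases of the cardiomyocyte table.

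Carboxylesterases of the Ces2 group are serine hydrolases of the endoplasmic reticulum that cleave ester bonds in drugs, pyrethroids and lipids such as diacylglycerols and triglycerides. They are best known from liver and intestine, where the human enzyme CES2 activates ester prodrugs such as irinotecan. Mice carry a tandem cluster of related Ces2 genes where humans carry a single gene.

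ENPP1 is an ectonucleotidase that splits extracellular ATP into AMP and pyrophosphate, and the study asked what CFs do in medium from cardiomyocytes exposed to ENPP1 together with ATP, or to AMP. Immortalized wild-type CFs of the C57BL/6 strain received myocyte-conditioned medium (MCndM) from cells given vehicle, ENPP1, ATP, ENPP1+ATP or AMP, and RNA was sequenced after 24 and 48 hours from 2 libraries in each of the 10 groups. Neonatal rat ventricular myocytes (NRVMs) of the Sprague-Dawley strain were sequenced after 24 hours of the same 5 treatments, with 3 libraries in each group. Nonmyocytes of C57BL/6 hearts at 7 days after infarction were sequenced as single cells in 1 library from wild-type controls and 1 from ENPP1CKO mice, in which Enpp1 was deleted by a tamoxifen-induced Cre under the Col1a2 promoter, a promoter of collagen-producing cells. The CFs are a cell line, so their libraries share a source. The study's methods call its replicates biological, and the sources used here do not say how the cultures were separated.

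CF libraries held 32184799 to 115824659 counted reads, with a median of 43133800, and the deepest was vehicle replicate 1 at 24 hours; the next deepest held 74110869. Levels are in CPM, which for CFs and NRVMs are counts per 1e+06 counted reads after library sizes were scaled by edgeR's TMM factors. For single cells CPM are counts per 1e+06 UMIs without this scaling. Of 10 fibroblast markers, 9 exceeded 1 CPM in the vehicle and ENPP1 libraries, while the surface antigen Thy1 stayed at 0 to 0.0628 CPM there. The summed fibroblast markers ranged from 8904.8 to 10017.2 CPM in those libraries and from 4079.9 to 6432.8 CPM in ENPP1+ATP and AMP MCndM. Col1a1, Col1a2, Col3a1, Pdgfra, Pdgfrb and Tcf21 were lower in ENPP1+ATP and AMP MCndM without overlap, whereas Vim and Postn overlapped. Dcn was higher, at 16.7 to 24.9 CPM against 12.4 to 16.1 CPM in vehicle and ENPP1 MCndM. Markers of cardiomyocytes summed to 18.9 to 24.6 CPM in vehicle and ENPP1 MCndM and to 12.1 to 17.3 CPM in ENPP1+ATP and AMP MCndM. Liver and gut epithelial markers, whose tissues express Ces2 genes strongly, summed to at most 1.57 CPM and 2.505 CPM in the same sets of libraries. Within that list Fabp1 was at 0 in every ENPP1+ATP and AMP library, whereas the highest library value went from 0.239 to 0.875 CPM for Epcam, from 0.126 to 0.344 CPM for Vil1 and from 0.0238 to 0.486 CPM for Alb. Macrophage and endothelial markers summed to 4.14 to 5.59 CPM in vehicle and ENPP1 MCndM and to 24.2 to 73.0 CPM in ENPP1+ATP and AMP MCndM. Most of that rise lay in Cd68, a lysosomal protein, and Csf1r, the receptor for CSF1, whereas the leukocyte gene Ptprc and the macrophage gene Adgre1 stayed at or under 0.0904 and 0.0598 CPM in all of these libraries. Of the endothelial genes, the highest library value went from 0.240 to 0.857 CPM for Pecam1 and from 1.37 to 2.42 CPM for Kdr, while Cdh5 stayed at or under 0.209 CPM and Tie1 at or under 0.162 CPM. The part of these markers in the Ces2 values was not tested.

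The 6 genes lie in a row on the plus strand of chromosome 8, from base 104734003 at the start of Ces2a to base 104969537 at the end of Ces2g, a span of 235535 bases (GRCm38, GENCODE M21, the assembly that mm10 denotes). Within it Ces2e covers bases 104926260 to 104934672, Ces2f 104947356 to 104960047 and Ces2g 104961718 to 104969537. The pseudogene Ces2d-ps lies between Ces2c and Ces2e. Ces2h, a further protein-coding gene after Ces2g, had no row in the CF count table, so its level is not known here. RefSeq promoters of the same assembly, 250 bases before to 50 bases after each gene start, were found for 5 of the 6 members, with no entry for Ces2b. The sequences of 4 are printed because Ces2e, Ces2f and Ces2g carried nearly all Ces2 reads of these cells and were all higher in ENPP1+ATP and AMP MCndM, whereas Ces2c was near its detection limit. Capitals mark the 9 letters ACTTTGCCC, a stretch that was picked out after the sequences had been compared.
Ces2e, chr8:104926010-104926309, plus strand: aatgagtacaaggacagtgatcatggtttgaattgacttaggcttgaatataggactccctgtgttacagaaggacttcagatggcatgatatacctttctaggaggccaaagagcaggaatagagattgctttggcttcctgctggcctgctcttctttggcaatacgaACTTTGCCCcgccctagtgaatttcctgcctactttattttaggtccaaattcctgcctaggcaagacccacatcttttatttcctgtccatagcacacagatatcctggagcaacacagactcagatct
Ces2f, chr8:104947106-104947405, plus strand: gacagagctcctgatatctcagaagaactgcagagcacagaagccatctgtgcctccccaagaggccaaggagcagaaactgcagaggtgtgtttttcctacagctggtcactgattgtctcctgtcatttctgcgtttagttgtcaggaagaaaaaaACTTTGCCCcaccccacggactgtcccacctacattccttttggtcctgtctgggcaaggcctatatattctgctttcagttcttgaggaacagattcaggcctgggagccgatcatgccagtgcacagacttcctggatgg
Ces2g, chr8:104961468-104961767, plus strand: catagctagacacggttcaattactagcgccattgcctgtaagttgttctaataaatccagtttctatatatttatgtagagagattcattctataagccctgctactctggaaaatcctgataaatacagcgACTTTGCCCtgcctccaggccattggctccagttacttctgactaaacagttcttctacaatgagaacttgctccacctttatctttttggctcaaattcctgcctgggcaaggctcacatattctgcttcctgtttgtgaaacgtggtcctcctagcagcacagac
Ces2c, chr8:104846818-104847117, plus strand: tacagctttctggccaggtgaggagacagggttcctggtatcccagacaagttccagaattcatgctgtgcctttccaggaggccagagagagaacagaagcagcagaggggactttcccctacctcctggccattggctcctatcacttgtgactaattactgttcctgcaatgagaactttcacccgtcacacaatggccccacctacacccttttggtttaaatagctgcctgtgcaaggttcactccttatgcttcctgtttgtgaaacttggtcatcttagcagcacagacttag
ACTTTGCCC was present in the windows of Ces2a, Ces2e, Ces2f and Ces2g, beginning 70, 80, 92 and 117 bases before the gene start, and absent from that of Ces2c. Ces2a thus carries it too, with 1 count over all libraries. The Ces2g match lies before the letters ggccattggctcc, which Ces2c also has. Further on both have caatgagaactt, where Ces2a has caataagaacttt and Ces2e caatacgaacttt at their match. Whether the Ces2g match corresponds to the others was not tested. On either strand it was found in 86 of 32851 promoter windows of that length, or 0.262%. Matches to the p53 half-site, by its name, were found in the windows of Ces2c and Ces2g, with 1 in each, and in 8.36% of all windows. These matches describe letters in a window and say nothing about binding.

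In vehicle MCndM, Ces2g carried most of the Ces2 reads. Scaled by length, as CPM per kilobase of exon, mean levels at 24 hours were 23.6 for Ces2g, 1.85 for Ces2e and 0.183 for Ces2f. The order was the same at 48 hours, with 23.2, 2.31 and 0.329 CPM per kilobase, and the libraries of neighbouring genes in this order did not overlap. Ces2g made up 93.2% of the summed Ces2 CPM at 24 hours and 91.2% at 48 hours.

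Ces2e, which is annotated as a pyrethroid hydrolase, was at a few CPM in vehicle MCndM. At 24 hours its level was 4.05 and 5.93 CPM in vehicle, 4.85 and 6.07 CPM in ENPP1, 16.5 and 19.3 CPM in ATP, 56.8 and 64.7 CPM in ENPP1+ATP and 94.2 and 106 CPM in AMP MCndM. At 48 hours it was 4.92 and 7.55 CPM in vehicle, 6.07 and 8.09 CPM in ENPP1, 40.8 and 25.7 CPM in ATP, 241 and 288 CPM in ENPP1+ATP and 341 and 333 CPM in AMP MCndM. All ATP, ENPP1+ATP and AMP libraries lay above both vehicle libraries of their time, whereas those of ENPP1 alone overlapped with vehicle. Against vehicle, the log2 fold change of Ces2e at 24 hours was 1.92 ± 0.29 (SE) in ATP, 3.69 ± 0.27 in ENPP1+ATP and 4.41 ± 0.27 in AMP MCndM, or 3.80-fold, 12.9-fold and 21.3-fold. At 48 hours it was 2.44 ± 0.27, 5.42 ± 0.27 and 5.77 ± 0.27, or 5.41-fold, 42.8-fold and 54.5-fold. Among the 11928 genes with a mean of at least 1 on the log2 CPM scale, the fold change ranked 17 in both ENPP1+ATP and AMP MCndM at 24 hours and 3 and 2 at 48 hours. That of Ces2g, which carried most Ces2 reads in vehicle, ranked 2522 and 1022 at 24 hours and 203 and 182 at 48 hours. In ENPP1 MCndM the log2 fold change of Ces2e was 0.22 ± 0.34 at 24 hours.

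Ces2f was the least abundant of the 3 genes per length. Its 24 hour levels were 0.911 and 0.889 CPM in vehicle, 0.907 and 1.07 CPM in ENPP1, 2.31 and 3.68 CPM in ATP, 20.3 and 23.3 CPM in ENPP1+ATP and 25.7 and 35.9 CPM in AMP MCndM. The 48 hour levels were 1.18 and 2.06 CPM in vehicle, 1.35 and 1.90 CPM in ENPP1, 7.05 and 5.05 CPM in ATP, 45.2 and 49.3 CPM in ENPP1+ATP and 43.9 and 50.7 CPM in AMP MCndM. As for Ces2e, the ENPP1 libraries overlapped with vehicle and those of the other 3 media were above it. Its log2 fold change against vehicle was 4.59 ± 0.27 in ENPP1+ATP and 5.10 ± 0.26 in AMP MCndM at 24 hours, and 4.88 ± 0.25 in both at 48 hours. In ATP MCndM it was 1.72 ± 0.32 at 24 hours and 1.93 ± 0.28 at 48 hours.

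Ces2g, the most abundant member in vehicle MCndM, had the smallest relative changes of the 3. Its level at 24 hours was 85.7 and 83.2 CPM in vehicle, 78.7 and 82.1 CPM in ENPP1, 76.1 and 71.6 CPM in ATP, 105 and 107 CPM in ENPP1+ATP and 139.6 and 135 CPM in AMP MCndM. At 48 hours its level was 82.1 and 83.6 CPM in vehicle, 83.1 and 84.4 CPM in ENPP1, 121 and 105 CPM in ATP, 233 and 279 CPM in ENPP1+ATP and 267 and 289.8 CPM in AMP MCndM. The libraries of ATP MCndM were below both vehicle libraries at 24 hours and above both at 48 hours, and those of ENPP1 MCndM were also below vehicle at 24 hours. The log2 fold change of Ces2g was 0.33 ± 0.07 in ENPP1+ATP and 0.70 ± 0.07 in AMP MCndM at 24 hours and 1.63 ± 0.07 and 1.75 ± 0.07 at 48 hours, the latter 3.09-fold and 3.36-fold. These are changes in the amount of transcript in CPM, and in bulk libraries fewer cells of a type and less RNA per cell cannot be told apart.

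**Figure D1:**
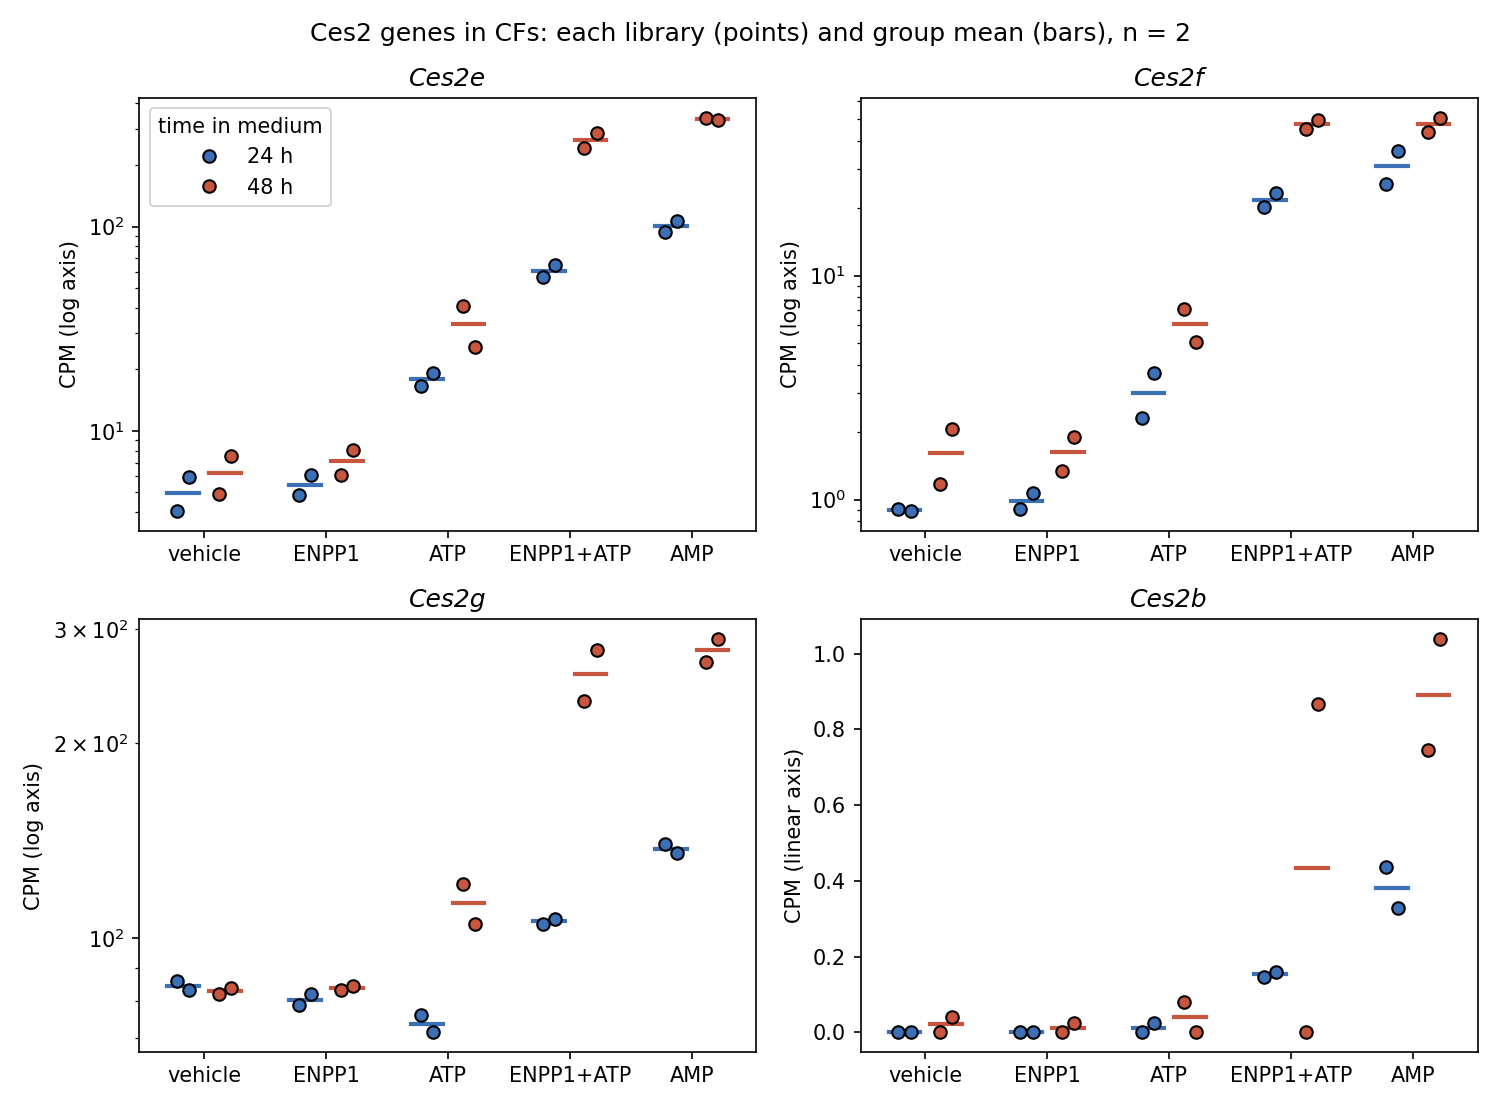
Levels of Ces2e, Ces2f and Ces2g (CPM, log axes) and Ces2b (CPM, linear axis) in each CF library, by medium and time; each point is 1 library and each bar the mean of 2. Ces2e in AMP MCndM at 48 hours, at 341 and 333 CPM, and ENPP1+ATP MCndM, at 241 and 288 CPM, lay far above vehicle, while ENPP1 MCndM overlapped with vehicle.

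Ces2b was measured by very few reads. At 24 hours its counts were 0 and 0 in vehicle, 0 and 0 in ENPP1, 0 and 1 in ATP, 6 and 7 in ENPP1+ATP and 18 and 25 in AMP MCndM. Against a floor of 3 counts over the vehicle group, its pooled level was 7.94-fold higher in ENPP1+ATP and 19.0-fold higher in AMP MCndM. These values leave out the counting error of the ENPP1+ATP and AMP counts. At 48 hours the counts were 0 and 2 in vehicle, 0 and 1 in ENPP1, 4 and 0 in ATP, 0 and 32 in ENPP1+ATP and 31 and 46 in AMP MCndM. The 48 hour difference in ENPP1+ATP MCndM was thus seen in replicate 2 and not in replicate 1, and the pooled ratio to vehicle, 20.3 with an exact 95% counting interval of 5.19 to 175, rests on replicate 2 alone. In that group 21 genes were at 0 in replicate 1 and 47 in replicate 2 while the other replicate had at least 20 counts, as against 108 and 6 in AMP at 24 hours, 0 and 8 in vehicle at 24 hours and 0 to 3 in the other groups. In AMP MCndM at 48 hours the ratio was 45.9, with an interval of 12.3 to 386. These intervals cover counting error only.

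Ces2c, a triglyceride and acylcarnitine hydrolase, did not follow the same pattern. It had 118 counts in all, spread over 19 of the 20 libraries, and its level was 0 to 0.307 CPM. Of these counts 35 were from the deepest library, vehicle replicate 1 at 24 hours. Pooled over each 24 hour group, the ratio to vehicle was 0.292 in ENPP1+ATP, 0.241 in AMP, 0.478 in ATP and 0.400 in ENPP1 MCndM, with exact 95% counting intervals of 0.111 to 0.652, 0.0980 to 0.517, 0.230 to 0.921 and 0.179 to 0.806. At 48 hours the ratios were 0.388 to 0.655, and each interval included 1. These intervals were 0.172 to 1.51 in ENPP1+ATP, 0.120 to 1.25 in AMP, 0.238 to 1.67 in ATP and 0.0929 to 1.23 in ENPP1 MCndM. The intervals cover counting error only and are no test between media. Of the 50-base windows in its exons, 36.1% were also found in another gene, most often the pseudogene Ces2d-ps, so its reads could be split with a near copy; the same share was 3.30% for Ces2e, 2.40% for Ces2f and 3.12% for Ces2g. Ces2a had 1 count over all libraries, so no change in it was detectable at this depth.

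Of the 6 members, Ces2b, Ces2e, Ces2f and Ces2g passed the filter on low counts. At 24 hours 4 members were above vehicle in both libraries in ENPP1+ATP MCndM and 4 in AMP MCndM, where this held for 37.3% and 36.4% of the 17879 genes tested. In ATP MCndM it was 2 members beside 26.6% of all genes, and in ENPP1 MCndM 0 members beside 17.4%. The 48 hour counts were 3 members in ENPP1+ATP, 4 in AMP, 3 in ATP and 0 in ENPP1 MCndM, beside 32.3%, 33.4%, 26.6% and 14.5% of all genes. Since the members were chosen for these contrasts, nothing is read from these counts. The 4 contrasts of each time share the same vehicle libraries.

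**Figure D2:**
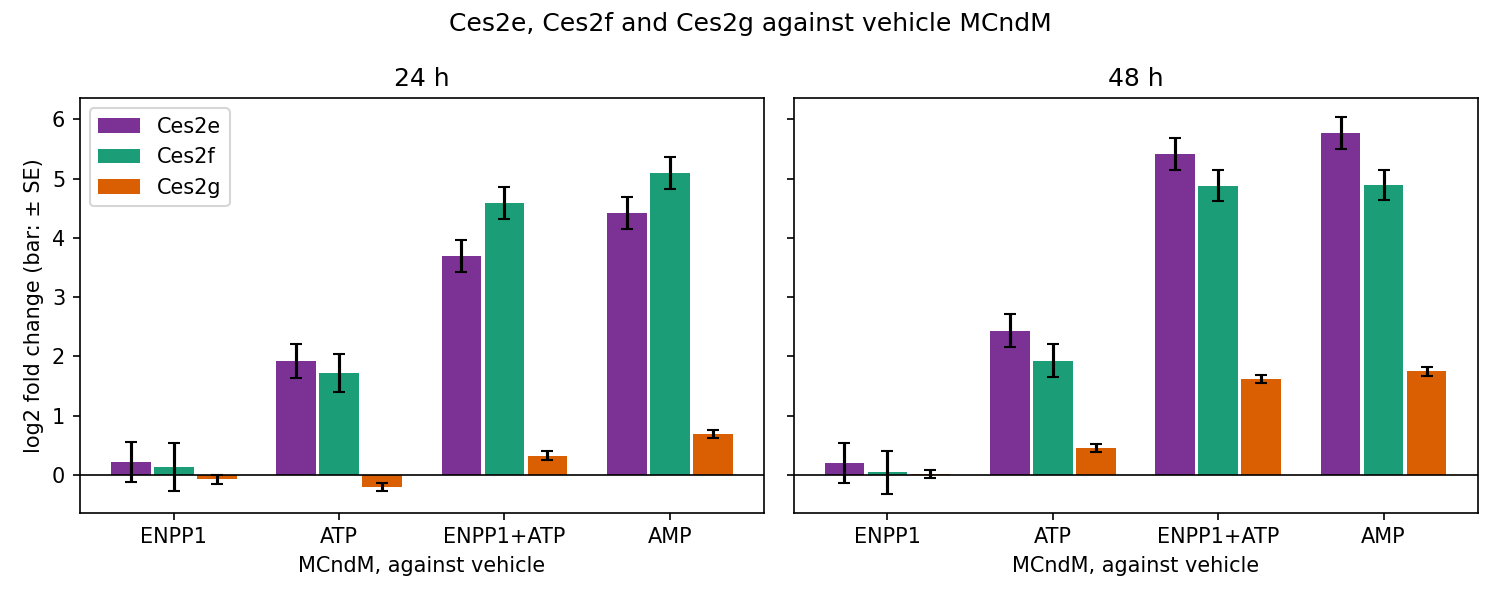
Log2 fold changes of Ces2e, Ces2f and Ces2g against vehicle in each medium at 24 and 48 hours. Bars are edgeR estimates from 2 libraries a group and whiskers are their standard errors. Ces2e reached 5.77 in AMP MCndM at 48 hours, and the ENPP1 values of the 3 genes stayed near 0.

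ENPP1+ATP and AMP MCndM were then compared directly. The log2 fold change of AMP against ENPP1+ATP at 24 hours was 0.72 ± 0.21 for Ces2e, 0.50 ± 0.19 for Ces2f and 0.37 ± 0.07 for Ces2g. At 48 hours the values were smaller, at 0.35 ± 0.20, 0.00 ± 0.19 and 0.12 ± 0.07. At that time the libraries of both media overlapped for Ces2f and Ces2g, and those of Ces2e did not. Against ATP alone, ENPP1+ATP MCndM gave log2 fold changes of 1.76 for Ces2e, 2.87 for Ces2f and 0.53 for Ces2g at 24 hours and of 2.98, 2.95 and 1.17 at 48 hours.

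Between 24 and 48 hours the 3 genes moved by different amounts. Ces2e was 2.12 ± 0.22 higher on the log2 scale at 48 hours in ENPP1+ATP MCndM and 1.75 ± 0.21 higher in AMP MCndM, beside 0.39 ± 0.33 in vehicle. Ces2g was 1.27 ± 0.07 and 1.02 ± 0.07 higher in these media and -0.03 ± 0.07 in vehicle. For Ces2f the values were 1.11 ± 0.19 in ENPP1+ATP and 0.61 ± 0.19 in AMP, beside 0.82 ± 0.35 in vehicle MCndM. The vehicle libraries of Ces2f thus also were higher at 48 hours, by about as much as those of AMP MCndM.

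The make-up of the Ces2 transcripts shifted with the medium. The summed Ces2 level was 90.6 ± 0.519 CPM (SD, n = 2) in vehicle, 189 ± 9.11 CPM in ENPP1+ATP and 269 ± 12.6 CPM in AMP MCndM at 24 hours. At 48 hours it was 90.9 ± 3.67, 568 ± 69.2 and 663 ± 15.8 CPM. The share of Ces2g in this sum, 91.2% in vehicle at 48 hours, was 45.0% in ENPP1+ATP and 41.9% in AMP MCndM, whereas Ces2e went from 6.83% to 46.6% and 50.8%. Per kilobase of exon, Ces2e stood at 0.0994 of the level of Ces2g in vehicle and at 1.37 and 1.61 times its level in ENPP1+ATP and AMP MCndM at 48 hours, so the order of the most abundant pair was turned around there. At 24 hours the ratio was 0.757 and 0.967 in these media, and in ATP MCndM it was 0.322 at 24 and 0.384 at 48 hours.

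Genes whose profile over the 10 group means was most like that of Ces2g were ranked by Pearson's r among 11831 genes. The leading genes were Ift27, an intraflagellar transport protein, with r = 0.991, the receptor Notch3 with r = 0.989 and the circadian repressor Nr1d1 with r = 0.988, followed by Slc12a4, Scap, Polr2j, Cad, Ada, Cercam and Ifi30. With Spearman's rho over the 20 libraries in place of r, 3 of these 10 genes stayed among the nearest 10. The same ranking for Ces2e and Ces2f was added after the data had been seen. For Ces2e it was led by Bscl2, the lipid droplet protein seipin, with r = 0.997, followed by the drug efflux pump gene Abcb1b and by Rnf169, Ckmt1, Ei24, St14, Map3k20, Dcxr, Ddit4l and Pitpnc1. For Ces2f it was led by Pidd1, a p53-induced death domain protein, with r = 0.999, and included Polk, a DNA polymerase, and Rprm, a cell cycle inhibitor, with Mab21l3, Fam124a, Aaas, Cep170b, Ercc5, Dennd2c and 1700007K13Rik. For these members 3 and 1 of the 10 genes stayed among the nearest 10 by Spearman's rho. Of the 10 genes nearest to each member, 0 for Ces2g, 1 for Ces2e and 1 for Ces2f belonged to the list of p53 targets used here. Many genes shared such profiles, with r above 0.98 for 18 genes with Ces2g, 133 with Ces2e and 124 with Ces2f. Among the members, r over the 10 group means was 0.984 for Ces2e with Ces2f, 0.915 for Ces2e with Ces2g and 0.864 for Ces2f with Ces2g, and all points of these comparisons share libraries.

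**Figure D3:**
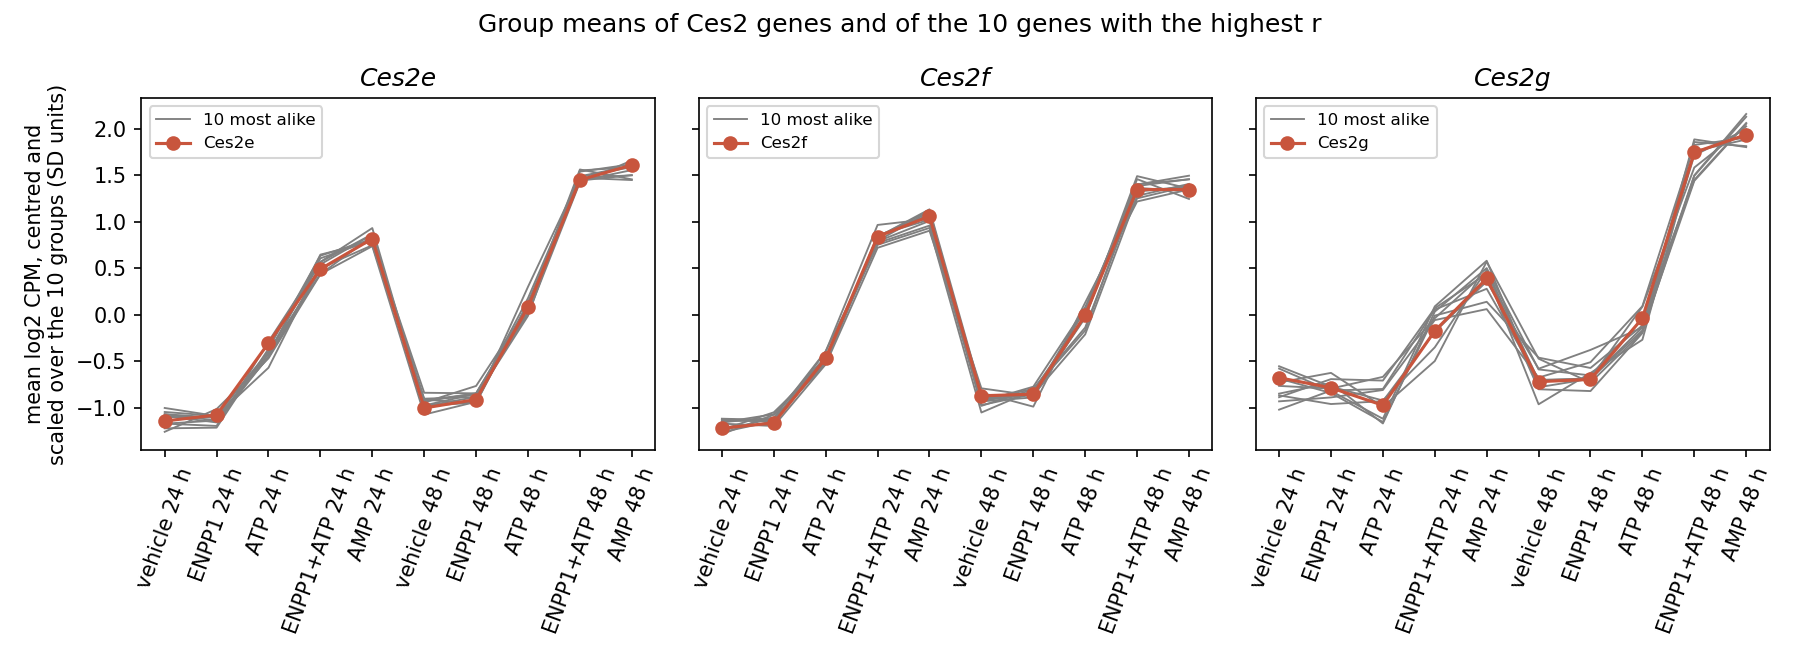
Group means of log2 CPM, centred and scaled to SD units over the 10 groups, for each of 3 Ces2 members (red) and the 10 genes with the highest r to it (grey); the x axis gives medium and time and each point is the mean of 2 libraries. The profile of Ift27 followed that of Ces2g with r = 0.991 and that of Bscl2 followed Ces2e with r = 0.997.

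Among the few measurable carboxylesterases outside the Ces2 group, those that passed the test were lower in ENPP1+ATP and AMP MCndM. Of 14 such genes listed, 11 were in the CF table and 4, all of the Ces1 group on a different stretch of chromosome 8, passed the filter on low counts. By edgeR's quasi-likelihood test with Benjamini-Hochberg adjustment over all genes, 2 of these 4 fell and 0 rose in ENPP1+ATP MCndM at 24 hours. In AMP MCndM 3 fell and 0 rose. Of all genes tested, 25.3% and 27.5% fell and 23.9% and 25.3% rose in these media. The counts at 48 hours were again 2 and 3 lower, beside 24.4% and 22.9% of all genes. Ces1d, a triglyceride hydrolase of liver and fat, changed by -1.28 ± 0.39 on the log2 scale in ENPP1+ATP (adjusted p = 0.00805) and by -1.44 ± 0.39 in AMP MCndM (adjusted p = 0.00277) at 24 hours. In ATP MCndM Ces1d also fell, by -1.58 at 24 hours (adjusted p = 0.00892) and -1.36 at 48 hours (adjusted p = 0.0316). Ces1g, which is also a lipid hydrolase, changed by -1.24 (adjusted p = 0.00444) and -1.003 (adjusted p = 0.0149). Ces1a had -0.84 (adjusted p = 0.0644) and -0.92 (adjusted p = 0.0353). Ces1f had 0.33 (adjusted p = 0.574) and -0.18 (adjusted p = 0.763). The median log2 fold change of the 4 genes at 24 hours was -1.04 and -0.96, whereas that of all genes lay between -0.03 and 0.00 in every contrast. These genes averaged about 1 CPM, and leaving out vehicle replicate 1 at 24 hours left 0 calls among the 4 in AMP MCndM. At 48 hours 0 calls in AMP and 1 in ENPP1+ATP MCndM were left without vehicle replicate 1.

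Enzymes that also cleave acylglycerols and other esters moved in both directions. Of 24 tested, 7 rose and 8 fell in ENPP1+ATP and 9 rose and 8 fell in AMP MCndM at 24 hours, where 23.9% and 25.3% of all genes rose and 25.3% and 27.5% fell. The largest decrease was in Lpl, the secreted lipoprotein lipase, at -1.51 ± 0.07 (adjusted p = 7.88e-14) and -1.72 ± 0.07 (adjusted p = 5.64e-15). Pnpla2, which encodes the adipose triglyceride lipase ATGL, rose by 0.67 (adjusted p = 1.35e-08) and 0.71 (adjusted p = 3.08e-09). The lipases Ddhd1, at 0.78 and 0.69, and Abhd6, at 0.74 and 0.53, also rose, while the lysosomal lipase Lipa, at -0.45 and -0.51, fell. Lipe, the hormone-sensitive lipase, was lower at 24 hours by -0.29 (adjusted p = 0.0199) and -0.67 (adjusted p = 4.73e-06) and higher at 48 hours by 1.41 (adjusted p = 1.47e-11) and 1.24 (adjusted p = 1.53e-10). At 48 hours 6 rose and 9 fell in ENPP1+ATP, and 3 rose and 8 fell in AMP MCndM, beside 20.8% and 21.1% of all genes higher and 24.4% and 22.9% lower.

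Genes that build triglycerides and coat lipid droplets were counted in the same way. Of 17 tested, 6 rose and 3 fell in ENPP1+ATP and 7 rose and 3 fell in AMP MCndM at 24 hours, and 9 rose and 3 fell and 9 rose and 4 fell at 48 hours. In these media 23.9% and 25.3% of all genes rose and 25.3% and 27.5% fell at 24 hours, and 20.8% and 21.1% rose and 24.4% and 22.9% fell at 48 hours. Bscl2 rose by 0.98 ± 0.06 (adjusted p = 3e-12) and 1.13 ± 0.06 (adjusted p = 1.49e-13) at 24 hours and by 1.51 and 1.55 at 48 hours. Plin2, a droplet coat gene named after its values were seen, had the largest 48 hour rise of the list, at 1.73 and 1.86. Dgat2, which adds the last acyl chain of triglycerides, rose by 1.07 in both media at 24 hours (adjusted p = 5.09e-08 and 3.44e-08). At 48 hours Dgat2 was lower instead, at -0.82 (adjusted p = 1.39e-05) and -0.65 (adjusted p = 0.000199). At 24 hours the droplet coat gene Plin4 rose by 0.73 and 0.18 and the phosphatidate phosphatase gene Lpin3 by 0.42 and 0.81, while the acyltransferase genes Gpam, at -0.41 and -0.70, and Agpat2, at -0.50 and -0.72, fell, as did Plin3, at -0.17 and -0.32.

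Among 33 tested genes of drug metabolism and transport, 9 rose and 12 fell in ENPP1+ATP and 8 rose and 13 fell in AMP MCndM at 24 hours, beside 23.9% and 25.3% of all genes that rose and 25.3% and 27.5% that fell. The efflux pumps Abcb1a and Abcb1b rose, Abcb1a by 2.02 ± 0.17 (adjusted p = 2.5e-10) and 2.54 ± 0.16 (adjusted p = 2.1e-12) and Abcb1b by 1.30 ± 0.06 (adjusted p = 3.38e-15) and 1.59 ± 0.06 (adjusted p = 4.61e-17). Fmo1, a flavin monooxygenase, was lower by -2.38 ± 0.29 (adjusted p = 1.02e-06) and -4.02 ± 0.33 (adjusted p = 3.45e-09), and the glutathione transferase Gstt1 by -1.77 and -2.19. Cyp3a13 rose by 2.38 and 2.08, and Aox1, at -1.13 and -0.93, and Cyp1b1, at -0.68 and -1.15, fell. At 48 hours 8 rose and 7 fell in ENPP1+ATP, and 10 rose and 6 fell in AMP MCndM, beside 20.8% and 21.1% of all genes that rose and 24.4% and 22.9% that fell.

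Of 17 tested transcription factors that have been tied to carboxylesterase genes, 3 rose and 7 fell in ENPP1+ATP and 5 rose and 8 fell in AMP MCndM at 24 hours, and 5 rose and 7 fell in both at 48 hours. Over all genes 23.9% and 25.3% rose and 25.3% and 27.5% fell at 24 hours, and 20.8% and 21.1% rose and 24.4% and 22.9% fell at 48 hours. Cebpa, a factor of liver and fat cells, rose by 1.24 ± 0.28 (adjusted p = 0.000688) and 1.15 ± 0.28 (adjusted p = 0.00117) at 24 hours, and its log2 fold change was -0.71 (adjusted p = 0.0719) and 0.22 (adjusted p = 0.582) at 48 hours. The lipid-sensing receptor Ppard rose by 0.52 (adjusted p = 6.26e-08) and 0.73 (adjusted p = 1.09e-10) at 24 hours. Klf15 was lower, by -0.78 (adjusted p = 7.67e-09) and -0.98 (adjusted p = 1.11e-10). Foxo1 rose by 0.26 and 0.49, whereas Cebpb, at -0.97 and -0.30, the sterol factor Srebf1, at -0.60 and -0.66, and the retinoid receptor Rxra, at -0.60 and -0.67, fell. The bile acid receptor gene Nr1h4 had -0.11 (adjusted p = 0.428) and -0.68 (adjusted p = 1.52e-05).

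Targets of the DNA damage factor p53, a list that the study's own account of these cells points to and that is not independent evidence of its direction, were mostly higher. Of 30 genes, 25 rose and 3 fell in ENPP1+ATP and 26 rose and 3 fell in AMP MCndM at 24 hours, and 24 rose and 5 fell and 23 rose and 4 fell at 48 hours. Over all genes 23.9% and 25.3% rose and 25.3% and 27.5% fell in these media at 24 hours. At 48 hours 20.8% and 21.1% of all genes rose and 24.4% and 22.9% fell. In ATP MCndM 18 rose and 1 fell at 24 hours and 20 rose and 1 fell at 48 hours. Of all genes, 4.77% and 5.35% rose and 6.32% and 2.48% fell in this medium. Ces2e and Ces2f were also above vehicle in ATP MCndM. Ces2g was below vehicle there at 24 hours and above it at 48 hours, with log2 fold changes of -0.20 and 0.45. The pro-apoptotic gene Pmaip1 rose by 3.22 ± 0.14 (adjusted p = 1.18e-11) in ENPP1+ATP and 3.63 ± 0.14 (adjusted p = 1.96e-12) in AMP MCndM at 24 hours, and Btg2, an antiproliferative gene, by 2.53 (adjusted p = 8.65e-13) and 3.05 (adjusted p = 5.89e-14). Perp, a membrane protein of desmosomes, rose by 3.45 and 3.91, and the genes that fell were Sesn1, at -0.46 and -0.84, Dram1, at -0.34 and -0.48, and Rrad. In ENPP1 MCndM 0 genes of any of these lists, and 0 of all 17879 genes, passed edgeR's test at either time; 249 genes at 24 hours and 743 at 48 hours had an unadjusted p under 0.05.

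The genes around the cluster were examined in the same fits. Of the 10 nearest protein-coding genes on each side, 14 passed the filter, and 3 rose and 5 fell in ENPP1+ATP, whereas 4 rose and 6 fell in AMP MCndM at 24 hours, beside 23.9% and 25.3% of all genes that rose and 25.3% and 27.5% that fell. At 48 hours 1 rose and 6 fell in ENPP1+ATP, and 5 rose and 4 fell in AMP MCndM, where 20.8% and 21.1% of all genes rose and 24.4% and 22.9% fell. Their log2 fold changes in AMP MCndM ranged from -1.64 in B3gnt9, a glycosyltransferase, to 1.15 in the heat shock factor gene Hsf4 at 24 hours, and from -1.79 in Pdp2, a mitochondrial phosphatase, to 0.93 in Hsf4 at 48 hours. Rrad, a small GTPase gene close to Ces2a, was lower at 24 hours by -0.76 (adjusted p = 4.05e-06) and -0.89 (adjusted p = 2.77e-07). The other tested neighbours, Cmtm3, Cmtm4, Dync1li2, Nae1, Car7, Ciao2b, D230025D16Rik, Tradd and Fbxl8, lay between -0.46 and 0.49 in both media at 24 hours. Cbfb, a partner of RUNX factors and the tested gene closest to Ces2g, had log2 fold changes of 0.06 and 0.04. Ces3b and Ces4a, carboxylesterase genes just beyond Ces2g, had at most 2 and 4 counts in any library.

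**Figure D4:**
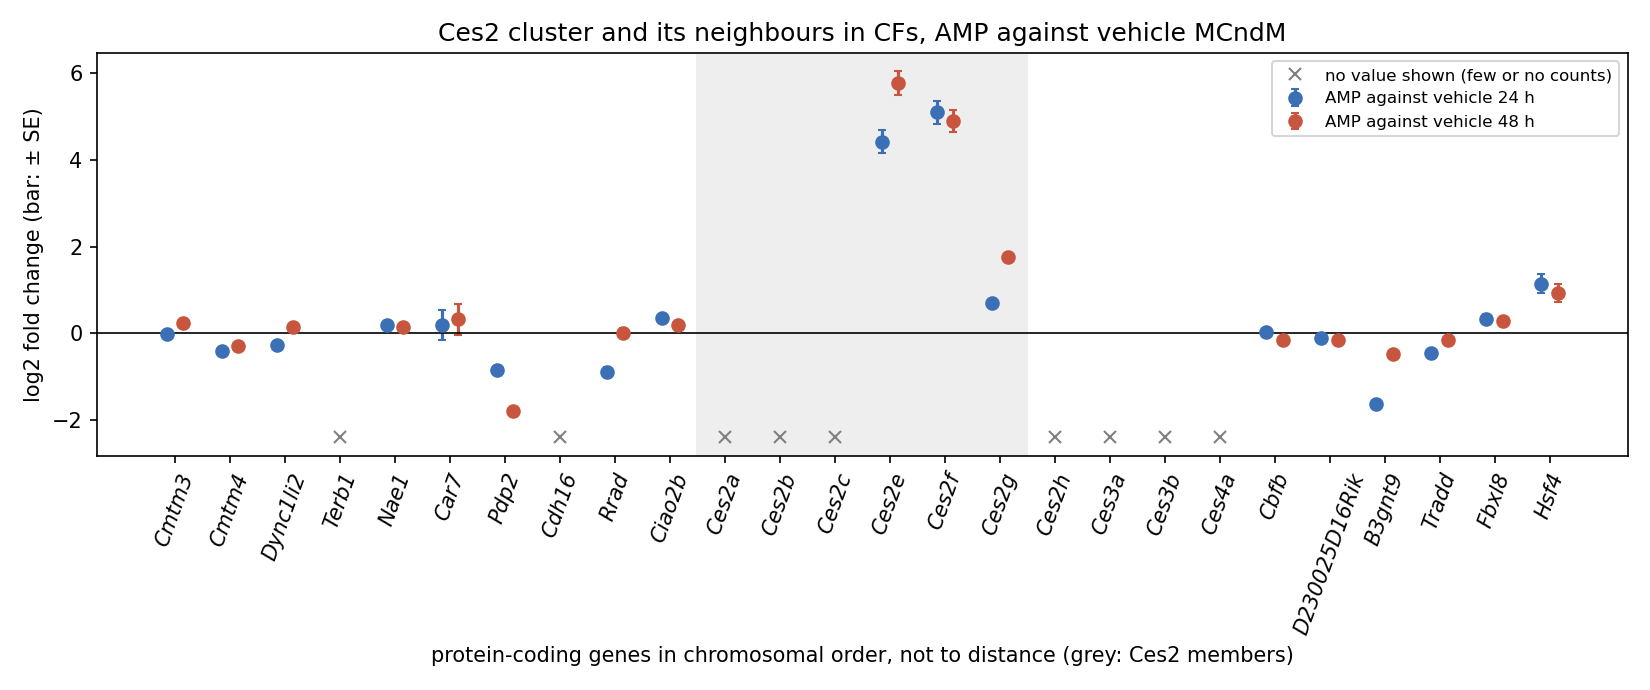
Log2 fold changes (bars, SE) in AMP MCndM against vehicle at 24 and 48 hours for the Ces2 members and the 10 protein-coding genes on each side, in their order along the chromosome and not to distance; crosses mark genes with too few counts or no row, for which no value is drawn. Neighbours in AMP MCndM at 24 hours lay between -1.64 and 1.15, below Ces2e at 4.41 and Ces2f at 5.10, while Ces2g at 0.70 was within the range of the neighbours.

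In the NRVMs, whose reads were counted on rat genes, Ces2 transcripts were rare and none of the rat carboxylesterases passed the filter on low counts. Rat Ces2g had counts of 1, 0 and 0 in vehicle, 0, 3 and 0 in ENPP1, 9, 5 and 19 in ATP, 1, 6 and 7 in ENPP1+ATP and 10, 3 and 6 in AMP. The libraries held 13481389 to 16977980 reads. All ATP and AMP libraries were above all vehicle libraries, whereas the lowest ENPP1+ATP library had as many counts as the highest vehicle library, at 1. Relative to vehicle, the pooled ratio was 29.2 in ATP, 13.04 in ENPP1+ATP and 18.0 in AMP, with exact 95% counting intervals of 4.89 to 1189, 1.98 to 551 and 2.86 to 747. An exact two-sided permutation test gave p = 0.1 for each of these 3, the smallest that 3 against 3 libraries allow, and 0.133 after adjustment over 4 comparisons. With no filter on low counts, edgeR's test gave an adjusted p of 3.22e-05 in ATP, 0.0114 in ENPP1+ATP and 0.00176 in AMP, beside 19.7%, 18.7% and 18.8% of all genes that rose. In ENPP1, rat Ces2g had a pooled ratio of 2.75 with an interval of 0.220 to 144 and an adjusted p of 0.972, beside 0.00496% of all genes that rose. The ENPP1+ATP value exceeded 0.05 when single libraries were left out: it was 0.0651 without ENPP1+ATP replicate 3, 0.0608 without vehicle replicate 2 and 0.0527 without vehicle replicate 3. Rat Ces2a had 13 counts over the 15 libraries, and Ces2h, Ces2i and Ces2j had 4, 5 and 2. The pooled count of rat Ces2g was highest in ATP, where 19 of 33 counts came from replicate 3; the media were not tested against each other.

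In the nonmyocytes of infarcted hearts, most Ces2e UMIs came from endothelial-like and most Ces2g UMIs from fibroblast-like cells. Over all barcodes, Ces2a, Ces2c and Ces2f had 0 UMIs in both libraries, Ces2b had 4 in ENPP1CKO and 0 in control, Ces2e 51 and 14, and Ces2g 103 and 110. Of 7460 and 5347 barcodes, 7255 and 5240 passed the filters, and 68 barcodes were shared by the libraries. With 1 library per genotype there is no test between them. Cells were named from marker genes after clustering.

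Ces2e was found mainly in endothelial-like cells. These held 41 Ces2e UMIs in 932 ENPP1CKO cells, or 23.8 CPM with an exact 95% interval of 17.1 to 32.3, and 11 in 192 control cells, or 19.6 CPM with an interval of 9.81 to 35.2. Fibroblast-like cells had 2 UMIs in 3715 ENPP1CKO cells and 1 in 1852 control cells, or 0.121 and 0.0966 CPM, although their median depth was higher, at 4055 and 5134.5 UMIs against 1472.5 and 2602.5 in endothelial-like cells. Cells with a Ces2e UMI were 3.76% and 4.69% of endothelial-like and 0.0538% and 0.0540% of fibroblast-like cells. Macrophage-like cells had 2 in 2051 ENPP1CKO cells, or 0.0975%, and 0 in 2467 control cells. The fibroblast-like share was below this background in ENPP1CKO and rested on 1 cell in control. With each cell thinned to 1000 UMIs, endothelial-like cells had 15 and 2 Ces2e UMIs and fibroblast-like cells 0 and 0. The intervals cover counting error only, and those of the genotypes overlapped.

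Ces2g was instead found in fibroblast-like cells. Its level there was 5.27 CPM in ENPP1CKO, from 87 UMIs and with an interval of 4.22 to 6.51, and 7.44 CPM in control, from 77 UMIs and with an interval of 5.87 to 9.29. A Ces2g UMI was present in 2.23% and 3.94% of fibroblast-like cells. Macrophage-like cells, in which free RNA would also be seen, had 0 in 2051 ENPP1CKO and 0 in 2467 control cells at median depths of 3285 and 3258 UMIs, which (at 3 counts) allows shares of cells with a UMI, not of cells expressing the gene, of up to 0.146% and 0.122%. Endothelial-like cells had 4 Ces2g UMIs in ENPP1CKO, or 2.32 CPM with an interval of 0.633 to 5.95 that overlapped with that of fibroblast-like cells, and 0 in control. Thinned to 1000 UMIs, fibroblast-like cells had 4.44 and 7.74 CPM, with overlapping intervals of 2.54 to 7.21 and 4.23 to 12.99. For Enpp1, the gene targeted in the ENPP1CKO mice, fibroblast-like cells had 28.7 CPM against 130 CPM in the control library.

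The level of Ces2g differed between clusters. Among the 18 clusters it was highest in a cluster of 27 and 116 cells with the mesothelial genes Upk3b and Msln among its leading genes. The level there was 51.3 CPM (95% counting interval 23.5 to 97.4) in ENPP1CKO and 27.0 CPM (18.3 to 38.3) in control. This cluster held 9 and 31 Ces2g UMIs and 2 Ces2e UMIs in each library. The marker genes alone would have named it. It was left unnamed by a rule on mesothelial genes added after the clusters were seen. The fibroblast-like values above leave it out. Of the fibroblast-like clusters, that with Clec3b and Dpep1 among its leading genes had 11.4 and 14.6 CPM, whereas that led by Cilp and Thbs4, with 1972 and 310 cells, had 2.81 and 5.09 CPM. The clusters were formed on these cells, so these values are a description.

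**Figure D5:**
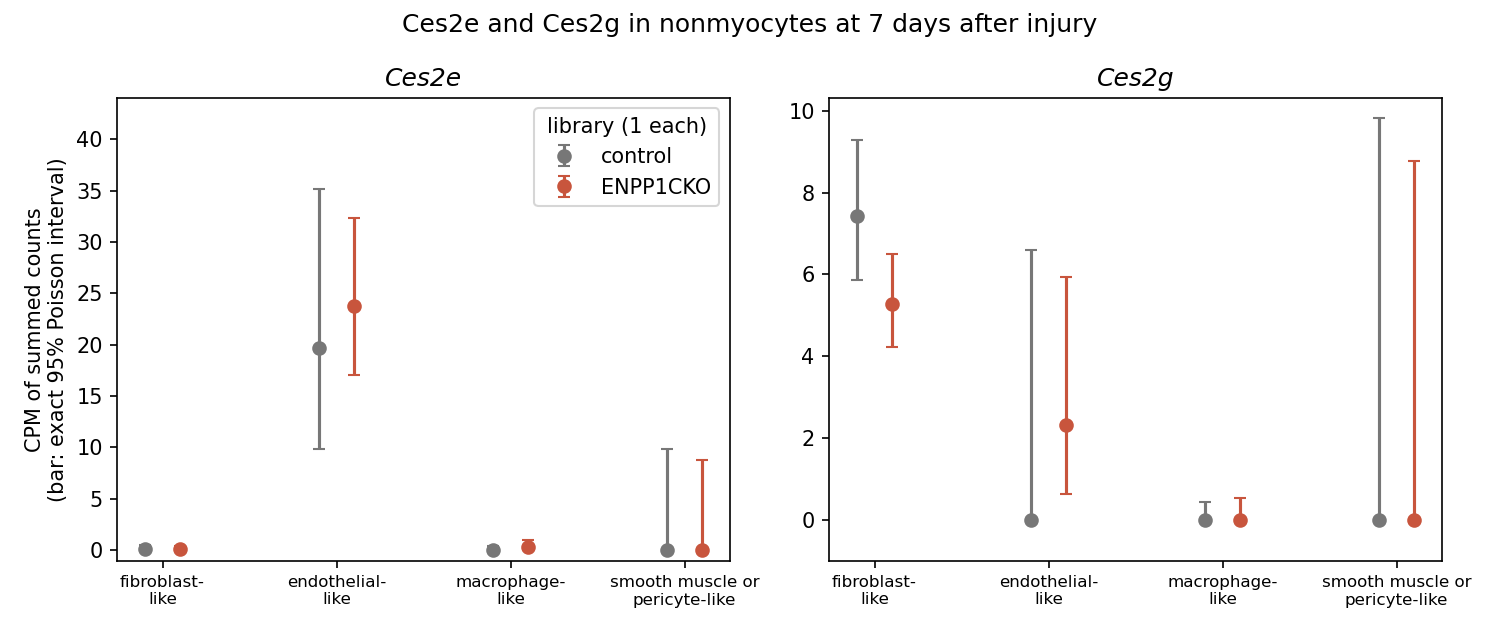
Ces2e and Ces2g in 4 named cell classes of infarcted hearts, in CPM of UMIs, for the ENPP1CKO and the control library; bars are exact 95% Poisson intervals. Ces2e was highest in endothelial-like cells, at 23.8 and 19.6 CPM, and fibroblast-like cells had 5.27 and 7.44 CPM of Ces2g.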

How the data were processed

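Fibroblast, NRVM and single-cell tables held the authors' raw read or UMI counts per gene, as deposited; the submitters' processing notes name STAR 2.5.3a, Cell Ranger and the builds mm10 and rn6, and the counter and its strand setting were not given in the sources used here. All columns were used (0 left out). Tests of counts used edgeR 4.0.16 under R 4.3.3 (filterByExpr, TMM, quasi-likelihood test, Benjamini-Hochberg adjustment over all genes, threshold 0.05, prior count 2 for log2 CPM), with 1 fit over all 20 CF and 1 over all 15 NRVM libraries. The filter kept 17879 of 30892 and 13461 of 20158 genes. The SE of a log2 fold change was derived from the test, as its absolute value divided by the square root of the F statistic. The scripts were tested on simulated data. The study's methods call its replicates biological; the labels do not say how cultures were separated, and p-values measure the spread between these libraries. Depth is given with the results, and intervals are exact 95% Poisson or Clopper-Pearson intervals.

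Single cells (Python 3.11.15, scanpy 1.11.5) with at least 200 genes and at most 20% mitochondrial UMIs were kept after 151 and 69 doublets called by Scrublet had been removed. They were clustered by Leiden at resolution 0.5, with Enpp1 and the 6 members left out of the variable genes, and named from marker genes. A cluster led by mesothelial genes was left unnamed by a rule added after the clusters were seen.

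The members, gene lists and naming rule were chosen with earlier results of these data known. The genes to name were chosen from all members, other Ces genes with at least 10 counts in a CF library, up to 3 genes with the largest rise and up to 3 with the largest fall per list in ENPP1+ATP or AMP at 24 hours, tested neighbours, the 10 genes most like each member, rat Ces2 genes and cell markers. Alternatives were DESeq2 1.42.0 and its size factors, no filter, a replicate block, pairwise fits, leaving out each library, Spearman's rho, stricter cell filters, another clustering resolution and thinning; a block without filter for rat Ces2g and the rankings for Ces2e and Ces2f were added after seeing the data.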

Additional observations from a re-analysis of the deposited data

Results flagged for a closer look

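Some log2 fold changes against vehicle had opposite signs at 24 and 48 hours, with both libraries of the medium on opposite sides of both vehicle libraries. The difference between the times was not tested, and groups of 2 can separate in this way by chance. Among the members this held for Ces2g in ATP MCndM, at -0.20 and 0.45. Of genes that make or break down lipid esters, Dgat2 was at 1.07 and -0.82 in ENPP1+ATP and 1.07 and -0.65 in AMP, Lipe at -0.29 and 1.41 in ENPP1+ATP and -0.67 and 1.24 in AMP, and Faah, a fatty acid amide hydrolase, at 0.67 and -0.41 in ENPP1+ATP and 0.89 and -0.94 in AMP. Smaller values were those of Agpat2 in ATP, 0.034 and -0.082, and Plin3 in AMP, -0.32 and 0.084. The other carboxylesterase was Ces1f, at 0.33 and -0.85 in ENPP1+ATP and -0.91 and 0.69 in ATP. Of drug metabolism genes, Aox1 was at -1.13 and 0.45 in ENPP1+ATP, and Cyp1b1 at -0.68 and 0.14 in ENPP1+ATP, -1.15 and 0.20 in AMP and -0.18 and 0.14 in ATP. The transcription factor gene Cebpa was at 1.24 and -0.71 in ENPP1+ATP. Of the neighbours, Cmtm3 was at -0.084 and 0.11 in ENPP1+ATP, Dync1li2 at -0.11 and 0.093 in ENPP1+ATP and -0.26 and 0.14 in AMP, and Nae1 at -0.067 and 0.048 in ENPP1 MCndM.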

How the results depend on the processing

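The log2 fold changes of Ces2e, Ces2f and Ces2g in ATP, ENPP1+ATP and AMP MCndM kept their direction under every alternative of scaling, filter and fit, also when each library was left out. Leaving out a library leaves an arm of 1, which is then assumed to vary like the other groups. Ces2b did not: in ENPP1+ATP at 48 hours its fitted log2 fold change was 4.25, and leaving out replicates gave -3.13, without replicate 2 of that medium, to 7.37. The summed Ces2 log2 ratio of ATP at 24 hours, 0.066, was 0.083 with DESeq2 size factors. In ENPP1 MCndM 0 genes were called, and 26 at 24 hours and 180 at 48 hours with no filter on low counts; leaving out replicates gave 0 to 0 and 0 to 129, the latter without ENPP1 replicate 2. The cause was not tested.

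Leaving out each library moved counts of calls as follows. ATP MCndM had 1983 calls at 24 hours (920 to 1205) and 1400 at 48 hours (646 to 929). Other carboxylesterases had 2 in ENPP1+ATP (1 to 2 at both times; 1 without vehicle replicate 1 at either time, ENPP1+ATP replicate 1 at 24 hours or 2 at 48 hours) and 3 in AMP MCndM (0 to 3 at both times), with 0 at 48 hours without vehicle replicate 1 and 1 at 24 hours without AMP replicate 2. Ester hydrolases in AMP MCndM at 24 hours had 17 (11 to 15; 11 without either vehicle library). Neighbours in AMP MCndM at 48 hours had 9 (5 to 7; 5 without vehicle replicate 2).

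Rat Ces2g did not pass the permutation test's threshold, which 3 against 3 libraries cannot reach, at log2 ratios of 3.70 in ENPP1+ATP, 4.17 in AMP and 4.87 in ATP. It passed with no filter in edgeR (3.30, 3.75 and 4.45), with DESeq2 (3.57, 4.06 and 4.77) and with no filter and a replicate block (3.28, 3.75 and 4.38). Leaving out each library gave 2.83 to 5.25, 3.28 to 5.71 and 3.80 to 6.41, and for ENPP1, at 1.46, -1.94 to 3.14, negative without ENPP1 replicate 2.

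The replicate numbers do not pair the samples: deviations of same-numbered libraries correlated at -0.106 to 0.132 in CFs and -0.0474 to 0.0616 in NRVMs. With the number as a replicate block, calls in CFs were 8933 in ENPP1+ATP, 9522 in AMP, 2129 in ATP and 0 in ENPP1 MCndM at 24 hours and 8181, 7985, 1525 and 0 at 48 hours, and the fitted Ces2b value in ENPP1+ATP at 24 hours was 5.76.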
